A study of Mus musculus with 9 samples.

Results

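The heart draws most of its energy from fatty acids, and 32 genes for the uptake, activation, mitochondrial import and oxidation of fatty acids were followed here in 9 RNA sequencing libraries from mouse heart. The genes were chosen by name: each is a row of the deposited count table, which holds 55401 genes, whose Ensembl identifier belongs to a chosen symbol. All 32 genes were found and all 32 had enough reads to be tested, since the lowest raw count of any of them in any library was 48. The mice were of the inbred strain C57BL/6. Hearts labelled Kmo+Ang II (3 libraries) and hearts labelled Ang II (3 libraries) received angiotensin II, a vasoconstrictor hormone that is widely used to provoke hypertrophy of the heart. Hearts labelled Ctrl (3 libraries) received PBS, a buffer without drug. The labels do not say what Kmo stands for, how much angiotensin II was given or for how long, or how old the mice were.

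The sample titles carry another grouping, in letters that the labels do not explain. KKA opens the titles of all 3 Kmo+Ang II libraries. WA opens the titles of Ang II replicate 3, Ctrl replicate 2 and Ctrl replicate 3. WC opens the titles of Ang II replicate 1, Ang II replicate 2 and Ctrl replicate 1. The WA and WC letters therefore cross the Ang II and Ctrl labels, and both groupings are given below. Wherever 3 values of a prefix are listed, they follow the order just given. The titles also end in numbers, which the labels do not explain either. Those of the WA libraries lie close together. Those of Ctrl replicate 1, Ang II replicate 2 and Kmo+Ang II replicates 2 and 3 form another close run, across the WC and KKA prefixes. The numbers of Ang II replicate 1 and Kmo+Ang II replicate 1 are lower than all of these. Whether the 3 libraries of a group stem from different animals is not labelled, and p-values therefore measure only the spread between these libraries, which may be technical.

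Long-chain fatty acids reach heart muscle bound to albumin or are cut from lipoprotein triglycerides by lipoprotein lipase. They cross the cell membrane, are bound by a small carrier protein, are joined to coenzyme A and pass into the mitochondrion as carnitine esters. There each turn of beta-oxidation runs through a dehydrogenase, a hydratase, a further dehydrogenase and a thiolase, and the electrons of the first step leave through the electron transfer flavoprotein. The nuclear receptor PPAR alpha and its coactivator PGC-1 alpha are known to drive many of these genes in the heart, and the adult heart is known to lean less on fatty acids when it hypertrophies.

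Libraries held between 56827533 and 73194268 counts, and mitochondrially encoded genes took between 30.3% and 55.5% of them. Markers of heart muscle were high in every library, with a summed level of 21418 to 61813 CPM (counts scaled to library size with TMM factors). The extraction protocol speaks of adipose tissue, but Adipoq, which defines fat cells, stayed between 0 and 2.94 CPM. The libraries Kmo+Ang II replicate 3 and Ctrl replicate 2 stood apart by markers of atrial muscle, which summed to 1258 and 166 CPM there and to between 3.39 and 7.21 CPM in the other 7 libraries. Results that rest on these libraries are given with and without them. The mouse gene named Kmo, which encodes kynurenine 3-monooxygenase, had raw counts of 25, 31 and 43 in the Kmo+Ang II libraries, of 21, 78 and 102 in the Ang II libraries and of 50, 42 and 51 in the Ctrl libraries, so the groups overlapped, and the labels do not say whether this gene is meant.

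Promoter windows of 300 bases around the transcription start were at hand for 26 of the 32 genes in a RefSeq table of build GRCm38.p6. They were searched on both strands for the PPAR direct repeat AGGTCANAGGTCA, the estrogen-related receptor element TCAAGGTCA, the hexamer AGGTCA that many nuclear receptors bind and that lies within both of these, and the E-box CACGTG. Neither the direct repeat, present in 0.0396% of all promoter windows of that length, nor the receptor element, present in 0.423%, was found in the 29 windows of the 26 genes. With shares this low, 29 windows would seldom hold a match, so the absence says nothing particular about the 26 genes. The hexamer was found in the windows of 5 genes (Acadm, Acadvl, Cd36, Cpt1a and Echs1), or 17.2% of their windows against 16.3% of all windows, and the E-box in 1 gene (Slc27a1), or 3.45% against 7.15%. The windows of Hadha and Hadhb, which encode the partner subunits of the mitochondrial trifunctional protein, overlap by 228 bases, because the genes are read in opposite directions from starts 273 bases apart. A match is only a match of letters. These windows are shown for genes that differ in how they moved below (Hadhb and Acadm higher in WA hearts, Slc27a1 lower, Cpt1a not called), and they were chosen after these values were seen. Capitals mark the bases shared with the Hadha window in Hadhb (chr5:30155003-30155302, + strand), the hexamer, antisense at position -249 from the start, in Acadm (chr3:153944594-153944893, - strand), the hexamer, antisense at -94, in Cpt1a (chr19:3323051-3323350, + strand) and the E-box at -202 in Slc27a1 (chr8:71570344-71570643, + strand).
Hadhb: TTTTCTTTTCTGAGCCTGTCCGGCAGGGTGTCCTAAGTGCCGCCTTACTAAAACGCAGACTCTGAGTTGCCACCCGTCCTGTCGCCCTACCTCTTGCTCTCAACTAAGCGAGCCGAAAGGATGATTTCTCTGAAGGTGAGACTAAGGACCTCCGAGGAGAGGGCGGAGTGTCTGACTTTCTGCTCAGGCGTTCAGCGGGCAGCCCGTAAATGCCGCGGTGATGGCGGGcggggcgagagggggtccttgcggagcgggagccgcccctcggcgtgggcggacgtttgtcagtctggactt
Acadm: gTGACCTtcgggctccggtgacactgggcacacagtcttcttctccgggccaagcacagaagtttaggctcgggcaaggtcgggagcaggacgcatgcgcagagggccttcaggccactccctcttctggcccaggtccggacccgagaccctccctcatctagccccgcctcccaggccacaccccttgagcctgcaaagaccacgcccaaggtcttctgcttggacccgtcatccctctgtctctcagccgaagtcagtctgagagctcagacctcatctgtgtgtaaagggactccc
Cpt1a: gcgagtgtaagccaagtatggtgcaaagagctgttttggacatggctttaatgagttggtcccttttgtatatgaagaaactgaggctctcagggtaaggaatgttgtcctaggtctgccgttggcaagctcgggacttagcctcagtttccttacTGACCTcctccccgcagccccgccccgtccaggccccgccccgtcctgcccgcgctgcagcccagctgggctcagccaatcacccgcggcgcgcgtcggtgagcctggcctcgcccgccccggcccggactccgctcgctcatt
Slc27a1: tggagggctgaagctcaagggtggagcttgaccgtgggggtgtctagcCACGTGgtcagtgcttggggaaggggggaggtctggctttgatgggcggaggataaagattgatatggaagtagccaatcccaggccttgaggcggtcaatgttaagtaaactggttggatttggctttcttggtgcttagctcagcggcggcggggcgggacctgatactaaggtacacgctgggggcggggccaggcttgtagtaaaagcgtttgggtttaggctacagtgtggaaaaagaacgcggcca

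Together the 32 genes took between 0.273% and 1.58% of all counts, and between 0.615% and 2.28% of the counts that did not come from mitochondrially encoded genes. Per kilobase of exon, the highest mean level over 9 libraries was that of Fabp3, the fatty acid-binding protein of heart muscle, at 1338 CPM per kilobase. It was followed by Lpl, which encodes lipoprotein lipase, at 283 CPM per kilobase, by Etfb at 232, by Acadl and Acaa2 at 191 each, and by Cd36 at 164. The lowest mean levels were those of Ehhadh, Acsl3 and Ppara, at 2.98, 0.96 and 0.74 CPM per kilobase. Of the 2 forms of carnitine palmitoyltransferase 1, the muscle form Cpt1b stood at 107 CPM per kilobase and the liver form Cpt1a at 4.02. Counting without regard to strand or overlap may touch Cpt1b and Etfb, which share 81.4% and 53% of their exon bases with another annotated gene on the same strand, and Acadvl, which shares 42.9% with Dvl2 on the opposite strand.

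Most of the 32 genes were high in the same libraries and low in the same libraries, across the treatment labels. The ratio of the highest to the lowest library ranged from 1.75 for Acsl3 to 10.9 for Fabp3, with a median of 4.73. Kmo+Ang II replicate 3 was the lowest of the 9 libraries for 27 of the 32 genes. The highest was Kmo+Ang II replicate 1 for 16 genes and Ctrl replicate 3 for 12. The matching counts over all genes were not taken. The median deviation of a gene from its own mean, on the log2 scale, was 0.89, -0.31 and -1.31 in the KKA libraries, 0.32, 0.43 and 0.88 in the WA libraries and -0.16, -0.54 and -0.35 in the WC libraries. All 3 WA libraries thus lay above the gene means and all 3 WC libraries below them, while the KKA libraries spanned both sides. By title number, the run of Ctrl replicate 1, Ang II replicate 2 and Kmo+Ang II replicates 2 and 3 lay below (-0.35, -0.54, -0.31 and -1.31). Of the libraries with lower numbers, Kmo+Ang II replicate 1 lay above (0.89) and Ang II replicate 1 below (-0.16). Whether the levels follow the title number and not the prefix was not tested, here or in the prefix comparisons below.

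**Figure D1:**
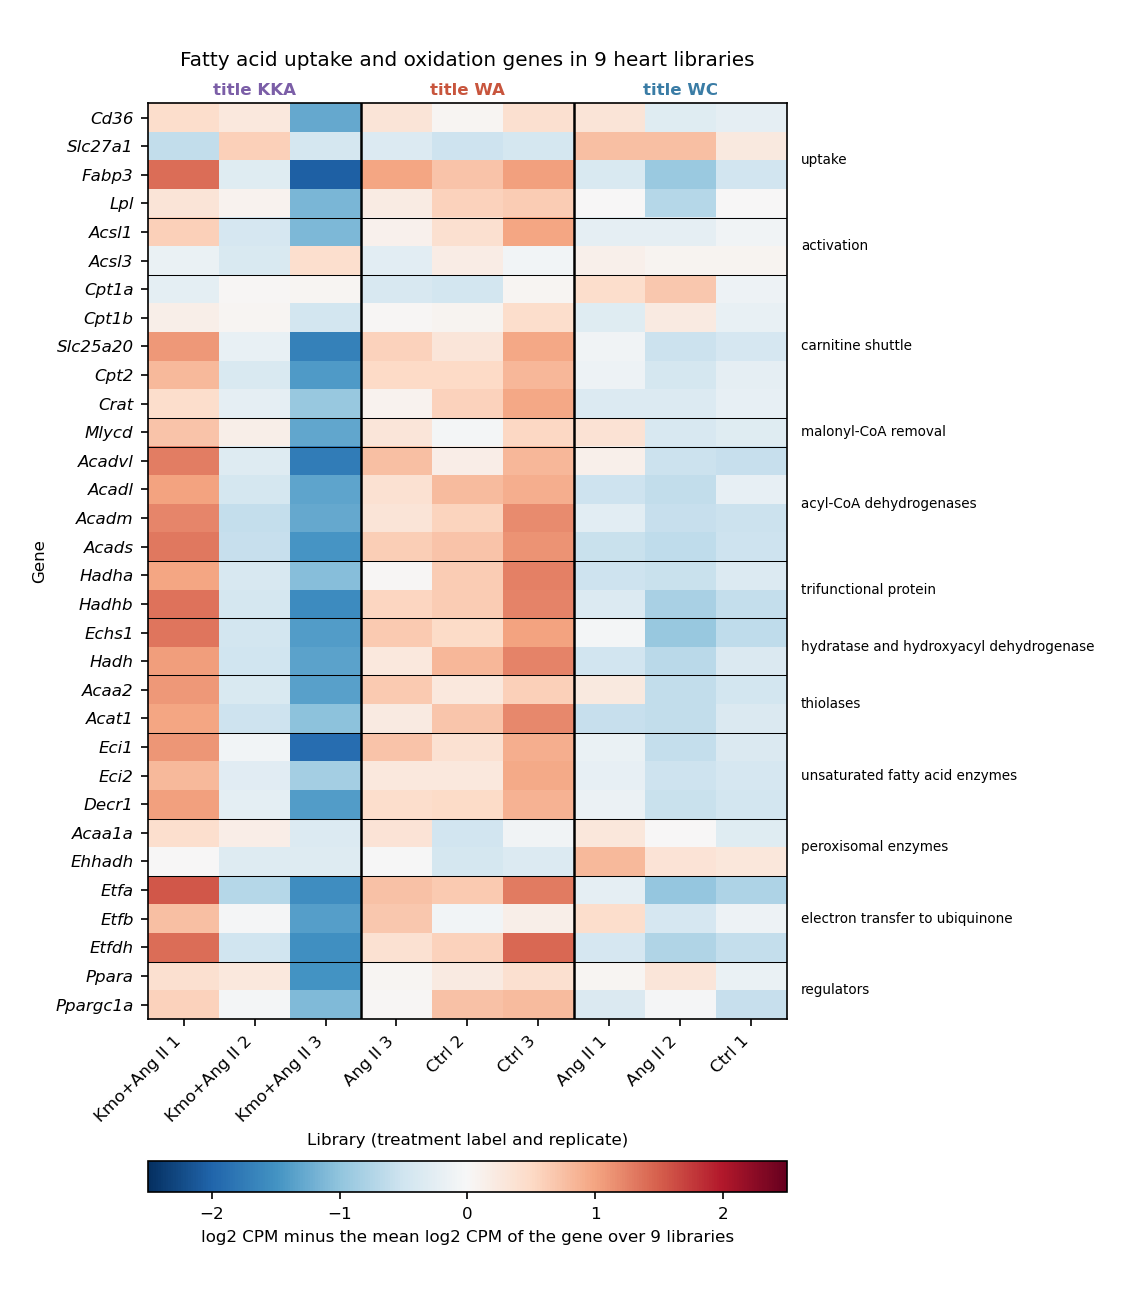
Level of each of the 32 genes (rows, by role) in each of 9 libraries (columns, by title prefix), as log2 CPM minus the gene's mean log2 CPM over the 9 libraries, red for higher and blue for lower. The columns of Kmo+Ang II replicate 1 and of the WA libraries are mostly red, and that of Kmo+Ang II replicate 3, the lowest library for 27 genes, is mostly blue.

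By treatment label, no fatty acid gene was called in Kmo+Ang II against Ang II, in Kmo+Ang II against Ctrl or in Ang II against Ctrl hearts, and neither was any other gene (0.0% of 19091 genes at an adjusted p under 0.05 in the edgeR quasi-likelihood test of 9 libraries). At an unadjusted p under 0.05, the same test listed 412, 533 and 1003 of all genes in these comparisons, and DESeq2 called 3, 9 and 2 genes, none of them among the 32. In Ang II against Ctrl hearts the median log2 difference of the 32 genes was -0.41 (all genes 0.02), and 25 of the 32 were negative, over a range of -0.99 to 0.67. When library size alone set the scaling, the all-gene median moved to 0.67 and that of the 32 genes to 0.27.

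The Ang II minus Ctrl values with the smallest p belonged to the peroxisomal genes. Acaa1a, the peroxisomal thiolase, stood at 59.4, 49.5 and 62.2 CPM in Ang II replicates 1 to 3, against 39.9, 35.01 and 46.0 CPM in Ctrl replicates 1 to 3. It was the only gene of the 32 with every Ang II library above every Ctrl library, which is no more than the share found over all genes (6.44%). Its log2 difference was 0.50 ± 0.24 (SE, n = 3 libraries each, edgeR adjusted p = 0.89). Ehhadh, the bifunctional enzyme of peroxisomal beta-oxidation, differed by 0.55 ± 0.28 (SE, edgeR adjusted p = 0.89). It stood at 14.9, 10.8 and 8.504 CPM in the Ang II libraries, against 10.3, 6.34 and 6.72 CPM in the Ctrl libraries, which overlapped. Within the WA prefix the median Ang II minus Ctrl difference of the 32 genes was -0.24 (1 library against 2, 10 genes positive), and within the WC prefix it was 0.11 (2 libraries against 1, 21 genes positive). With the prefix as a covariate the median was -0.04. The negative median thus held within WA and turned positive within WC, and the medians of all genes within each prefix were not computed. Less the median of all genes, leaving out Ctrl replicate 1 gave -0.77, leaving out Ctrl replicate 3 gave -0.13, and leaving out both libraries with atrial markers gave -0.38.

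In Kmo+Ang II against Ang II hearts the median log2 difference was 0.06 (all genes 0.03), with 20 of the 32 genes positive. The smallest p was that of Ehhadh, with a log2 difference of -0.62 ± 0.28, and the next that of Cpt1a, with -0.35 ± 0.28 (SE, n = 3 each, edgeR adjusted p = 0.9998 for both). Against Ctrl hearts the median was -0.26 (all genes 0.05), with 4 genes positive. Crat, which encodes carnitine acetyltransferase, had a log2 difference of -0.66 ± 0.40 there, and Acaa1a one of 0.40 ± 0.24 (SE, n = 3 each, edgeR adjusted p = 0.998 for both). The median against Ctrl hearts turned to 0.07 without Kmo+Ang II replicate 3 (19 genes positive), to 0.05 without Ctrl replicate 3 (19 positive), to 0.08 without both libraries with atrial markers (19 positive), and to 0.19 when library size alone set the scaling (all genes 0.37). It was -1.10 without Kmo+Ang II replicate 1, -0.58 without Ctrl replicate 1 and -0.57 with limma-voom. The spread within Kmo+Ang II bounds what these comparisons can show: the level in replicate 1 was a median of 4.24 times that in replicate 3 over the 32 genes. Without replicate 1 the median against Ang II hearts, less that of all genes, was -0.64, and without replicate 3 it was 0.41; no fatty acid gene was called either way. The median itself, 0.06 with all libraries, was -0.08 without Ang II replicate 2 (13 genes positive), -0.14 with limma-voom (4 positive), and -0.18 when library size alone set the scaling (10 positive, all genes -0.29). Leaving out both libraries with atrial markers gave 0.43 (28 positive).

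**Figure D2:**
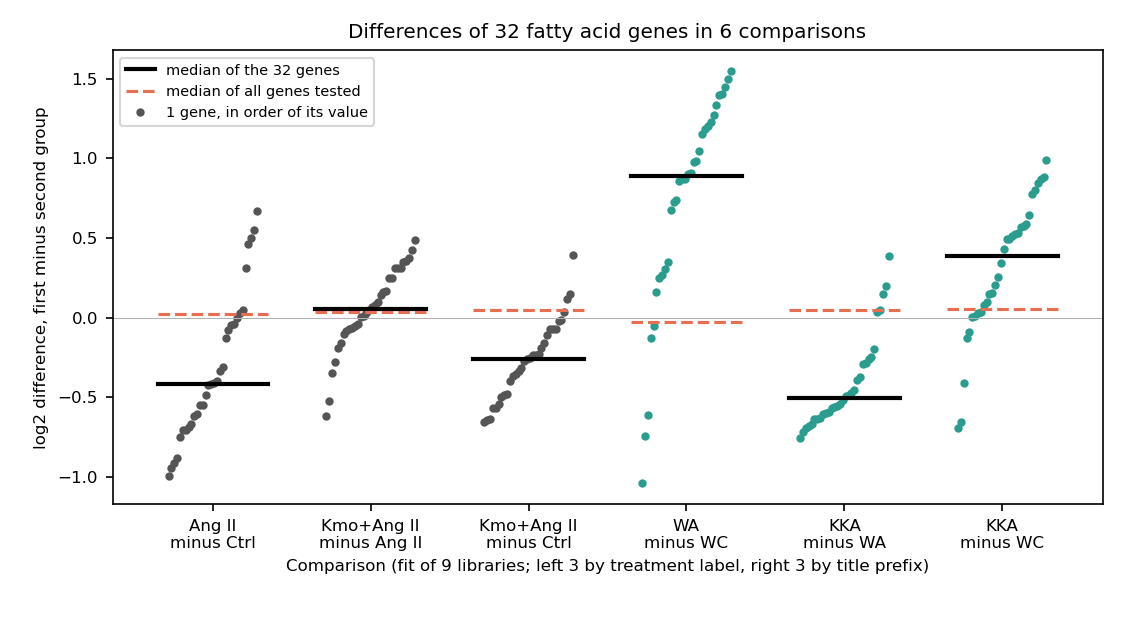
Log2 difference of each of the 32 genes (points, in order of value) in 6 comparisons from the fits of 9 libraries, with the median of the 32 genes (black line) and of all tested genes (dashed line). The medians of the 32 genes are 0.89 in WA minus WC, -0.50 in KKA minus WA, and between -0.41 and 0.39 in the others.

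By title prefix, most steps of fatty acid oxidation were higher in WA than in WC hearts. In the 6 libraries of these prefixes, 19 of the 32 genes were called higher and 2 lower (edgeR quasi-likelihood test, adjusted p under 0.05), against 8.06% of all 18111 tested genes called higher and 5.25% called lower. The median log2 difference of the 32 genes was 0.90 (all genes -0.01), and that of the 19 called genes ran from 0.87 for Ppargc1a to 1.56 for Etfa. Every WA library lay above every WC library for 22 of the 32 genes, as for 16.5% of all genes, and below for 2, as for 17.2%. In bulk tissue, fewer cells of a type and less RNA per cell cannot be told apart.

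The call rests on which libraries set the spread. In the fit of all 9 libraries, 0.0% of 19091 genes were called between WA and WC, with 3443 genes at an unadjusted p under 0.05. There the 19 genes had log2 differences of 0.86 to 1.55, all 19 of them positive, with edgeR adjusted p from 0.234 to 0.432, and the median SE of the 32 genes was 0.47, against 0.23 with 6 libraries. The smallest p of the 32 genes there were those of Ehhadh, at -0.74 ± 0.23, and Slc27a1, at -1.04 ± 0.33 (edgeR adjusted p = 0.224 for both). When Kmo+Ang II replicate 1 was left out of that fit, 12 of the 19 genes were called higher and 1 of the 32 lower. Of all 19742 genes tested there, 927 (4.7%) were called higher and 649 lower, so the 1 lower call is near the share of all genes.

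**Figure D3:**
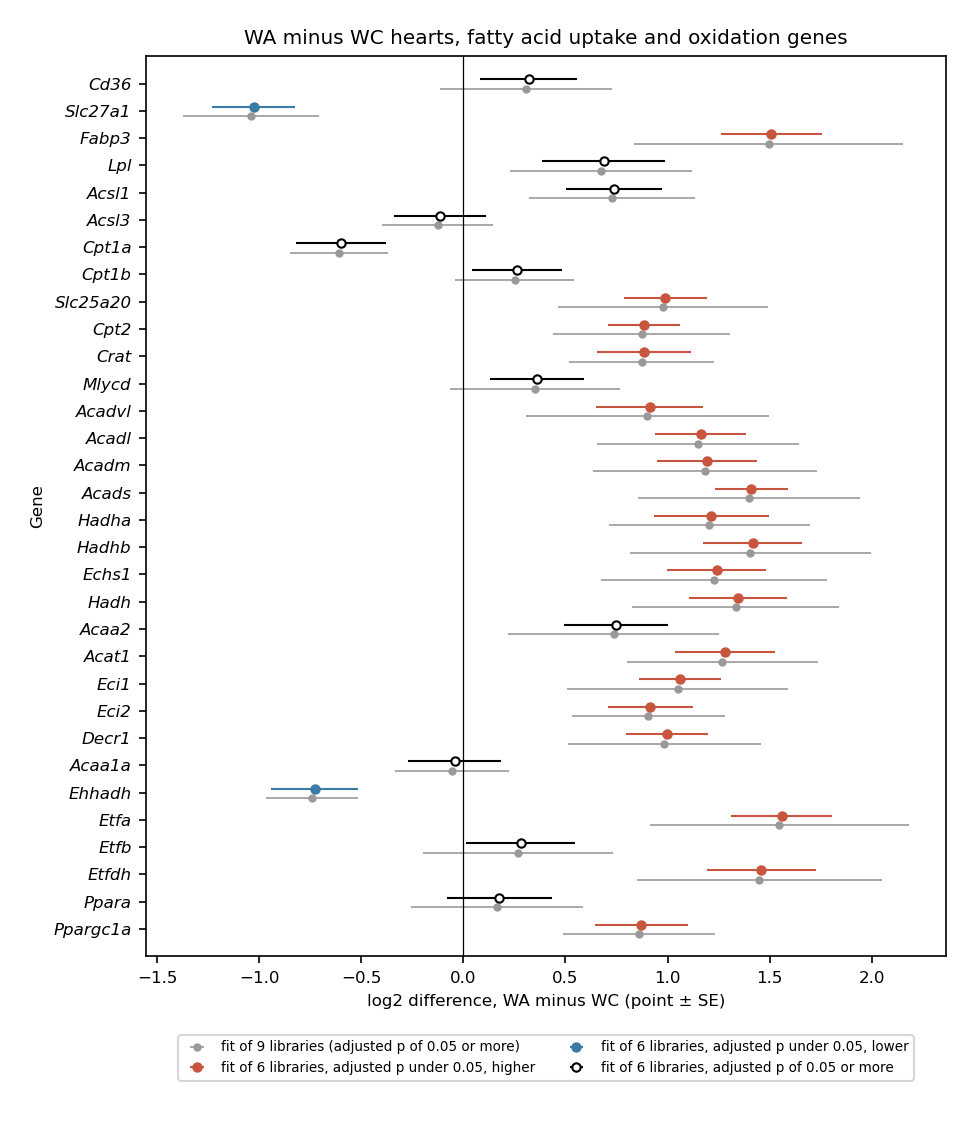
Log2 difference WA minus WC (point ± SE) of each of the 32 genes in the fit of the 6 WA and WC libraries (upper points, filled where the adjusted p is under 0.05) and in the fit of all 9 libraries (grey). The positions nearly coincide, from -1.04 to 1.56, while the grey bars are longer (median SE 0.47 against 0.23).

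Among the 4 uptake genes, 1 was called higher in WA hearts, 1 lower and 2 neither. Fabp3 had 2290.0, 705 and 210.5 CPM in the KKA libraries, 1734, 1435 and 1782 CPM in the WA libraries and 674, 459.5 and 623 CPM in the WC libraries. WA hearts lay well above WC hearts without overlap, and the log2 difference was 1.51 ± 0.25 (SE, n = 3 each, edgeR adjusted p = 0.00495). Slc27a1, which encodes the fatty acid transport protein FATP1, went the other way, with 124, 109 and 115 CPM in WA hearts, against 263, 265 and 186.2 CPM in WC hearts (log2 difference -1.03 ± 0.20, edgeR adjusted p = 0.00986). In the KKA libraries it stood at 102, 238 and 115 CPM, so replicate 2 was at the WC level and the other 2 near the WA level. Cd36, the main membrane translocase for fatty acids, overlapped: 699, 578 and 733 CPM in WA hearts, against 695, 453 and 475 CPM in WC hearts. Its log2 difference of 0.32 ± 0.24 was not called (edgeR adjusted p = 0.402) and turned to -0.01 when library size alone set the scaling. Lpl averaged 3887 ± 612 CPM in WA hearts and 2436 ± 638 CPM in WC hearts (SD, n = 3 each), with every WA library above every WC library, but its difference of 0.69 ± 0.30 was not called either (edgeR adjusted p = 0.152).

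Neither acyl-CoA synthetase and neither form of carnitine palmitoyltransferase 1 was called. Acsl1, the main long-chain acyl-CoA synthetase of heart, had 230.1, 281 and 424 CPM in WA hearts, against 183, 183 and 199.5 CPM in WC hearts. The groups did not overlap, and its log2 difference of 0.74 ± 0.24 just missed the threshold (edgeR adjusted p = 0.0601). Acsl3, a synthetase known for lipid droplet formation, lay between 3.17 and 5.54 CPM in all 9 libraries. Carnitine palmitoyltransferase 1, on the outer mitochondrial membrane, controls entry. Its muscle form Cpt1b had 389.9, 369 and 258 CPM in KKA hearts, 360.3, 369 and 479 CPM in WA hearts and 289, 414 and 312 CPM in WC hearts. These overlapped, and the WA minus WC difference of 0.26 ± 0.22 was not called (edgeR adjusted p = 0.467), and it turned to -0.07 when library size alone set the scaling. The liver form Cpt1a had 22.7, 21.8 and 30.9 CPM in WA hearts, against 40.2, 47.4 and 27.3 CPM in WC hearts, which overlapped (log2 difference -0.60 ± 0.22, edgeR adjusted p = 0.094).

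The other 3 of the 32 genes that handle carnitine esters were all called higher in WA hearts. Slc25a20, which carries acylcarnitines across the inner membrane, had 68.6, 56.95 and 89.7 CPM in WA hearts, against 43.3, 31.7 and 34.4 CPM in WC hearts (log2 difference 0.99 ± 0.20, edgeR adjusted p = 0.0115). Cpt2, which hands the acyl group back to coenzyme A, differed by 0.89 ± 0.18 (edgeR adjusted p = 0.0104), and Crat, which buffers acetyl groups as acetylcarnitine, by 0.88 ± 0.23 (edgeR adjusted p = 0.0277). None of these 3 genes overlapped between WA and WC. Mlycd, which encodes the decarboxylase that removes malonyl-CoA, the inhibitor of carnitine palmitoyltransferase 1, overlapped at 52.1, 40.6 and 60.8 CPM in WA hearts, against 54.3, 32.1 and 34.1 CPM in WC hearts.

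All 4 acyl-CoA dehydrogenases, which take the first step of each turn on chains of falling length, were called higher in WA hearts. Acads, for short chains, had the smallest p of the 32 genes. It stood at 105, 28.2 and 15.2 CPM in KKA hearts, 64.2, 68.8 and 91.7 CPM in WA hearts and 28.6, 27.1 and 29.5 CPM in WC hearts. The WC libraries lay close together and all WA libraries were above them (log2 difference 1.41 ± 0.18, edgeR adjusted p = 0.00233). Acadm, for medium chains, had 287, 338 and 522 CPM in WA hearts, against 192, 155 and 158 CPM in WC hearts (1.19 ± 0.25, edgeR adjusted p = 0.0114). Acadl, for long chains, averaged 548 ± 98.5 CPM in WA hearts and 247 ± 37.9 CPM in WC hearts (SD, n = 3 each), which differed by 1.16 ± 0.22 on the log2 scale (edgeR adjusted p = 0.00875). Acadvl, for very long chains, gave the smallest difference of the 4, at 0.91 ± 0.26 (edgeR adjusted p = 0.0415), with 462, 306 and 491 CPM in WA hearts, against 301, 189 and 185 CPM in WC hearts. The lowest WA library and the highest WC library of Acadvl nearly touched.

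Both subunits of the trifunctional protein, which carries out the remaining 3 steps on long chains, were called higher in WA hearts. Hadha had 489.8, 188 and 118 CPM in KKA hearts, 252, 385 and 598 CPM in WA hearts and 173, 168 and 196 CPM in WC hearts. Hadhb had 667, 193 and 87.8 CPM in KKA hearts, 378, 404 and 616 CPM in WA hearts and 205, 149 and 173 CPM in WC hearts. In both genes the libraries fell in nearly the same order, with Ctrl replicate 3 and Kmo+Ang II replicate 1 highest. The log2 difference WA minus WC was 1.22 ± 0.28 for Hadha (edgeR adjusted p = 0.0179) and 1.42 ± 0.24 for Hadhb (edgeR adjusted p = 0.00556). Hadh, Acat1 and Etfdh also had Ctrl replicate 3 and Kmo+Ang II replicate 1 highest, so that order is not particular to this pair. The stretch printed in capitals above lies between the starts of Hadha and Hadhb, and whether it bears on their levels was not tested.

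The enzymes that finish shorter chains followed. Echs1, the short-chain enoyl-CoA hydratase, had 101, 89.2 and 129.8 CPM in WA hearts, against 61.7, 33.4 and 41.5 CPM in WC hearts (log2 difference 1.24 ± 0.24, edgeR adjusted p = 0.00954). Hadh, the 3-hydroxyacyl-CoA dehydrogenase, had 132.1, 194 and 259 CPM in WA hearts, against 78.9, 68.3 and 84.8 CPM in WC hearts (1.35 ± 0.24, edgeR adjusted p = 0.00678). The thiolases, which release acetyl-CoA, gave different calls: Acat1, which also splits acetoacetyl-CoA from ketone bodies, was called higher at 1.28 ± 0.25 (edgeR adjusted p = 0.00875), while Acaa2 was not, at 0.75 ± 0.25 (edgeR adjusted p = 0.0739). Acaa2 had 406, 308 and 388 CPM in WA hearts, against 307, 168 and 186.3 CPM in WC hearts, so its groups met at 308 and 307 CPM. Whether the 2 thiolases differ from each other was not tested.

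Enzymes for unsaturated chains were called higher in WA hearts as well. Decr1, the 2,4-dienoyl-CoA reductase, had 160.4, 164 and 214 CPM in WA hearts, against 106, 80.3 and 85.6 CPM in WC hearts (log2 difference 0.997 ± 0.20, edgeR adjusted p = 0.0105). The enoyl-CoA isomerases Eci1 and Eci2 differed by 1.06 ± 0.20 and 0.92 ± 0.21 (edgeR adjusted p = 0.0083 and 0.0163). The peroxisomal enzymes did not share this direction. Ehhadh had 8.65, 6.82 and 6.85 CPM in KKA hearts, 8.504, 6.34 and 6.72 CPM in WA hearts and 14.9, 10.8 and 10.3 CPM in WC hearts, and was called lower in WA hearts (-0.73 ± 0.21, edgeR adjusted p = 0.0431). Of the 32 genes, 1 (Ehhadh) also had every KKA library below every WC library, which is about the share found over all genes (3.93%). Acaa1a had 62.2, 35.01 and 46.0 CPM in WA hearts, against 59.4, 49.5 and 39.9 CPM in WC hearts, with a difference of -0.04 (edgeR adjusted p = 0.922).

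The electron transfer genes held the greatest difference of the 32. Etfa, the alpha subunit of the electron transfer flavoprotein, had 254, 53.5 and 29.7 CPM in KKA hearts, 144, 137 and 216 CPM in WA hearts and 74.1, 44.9 and 50.8 CPM in WC hearts (WA minus WC 1.56 ± 0.25, edgeR adjusted p = 0.00455). Etfdh, which passes the electrons on to ubiquinone, had 116, 133 and 244 CPM in WA hearts, against 67.6, 53.2 and 59.7 CPM in WC hearts (1.46 ± 0.27, edgeR adjusted p = 0.00716). Neither gene overlapped between WA and WC. The beta subunit Etfb did, at 397, 239.5 and 275 CPM in WA hearts, against 339.6, 188 and 229.7 CPM in WC hearts, and was not called (0.28 ± 0.27, edgeR adjusted p = 0.528).

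Of the regulators, the coactivator was called and the receptor was not. Ppargc1a, which encodes PGC-1 alpha, had 26.95, 44.3 and 46.0 CPM in WA hearts, against 20.7, 26.1 and 17.7 CPM in WC hearts, and was called higher (log2 difference 0.87 ± 0.23, edgeR adjusted p = 0.0275). The lowest WA library, Ang II replicate 3, lay barely above the highest WC library. Ppara stood at 2.76, 3.15 and 3.53 CPM in WA hearts, against 2.76, 3.29 and 2.37 CPM in WC hearts, which overlapped (0.18 ± 0.26, edgeR adjusted p = 0.699; -0.19 when library size alone set the scaling). Whether the coactivator and the receptor differ from each other was not tested.

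**Figure D4:**
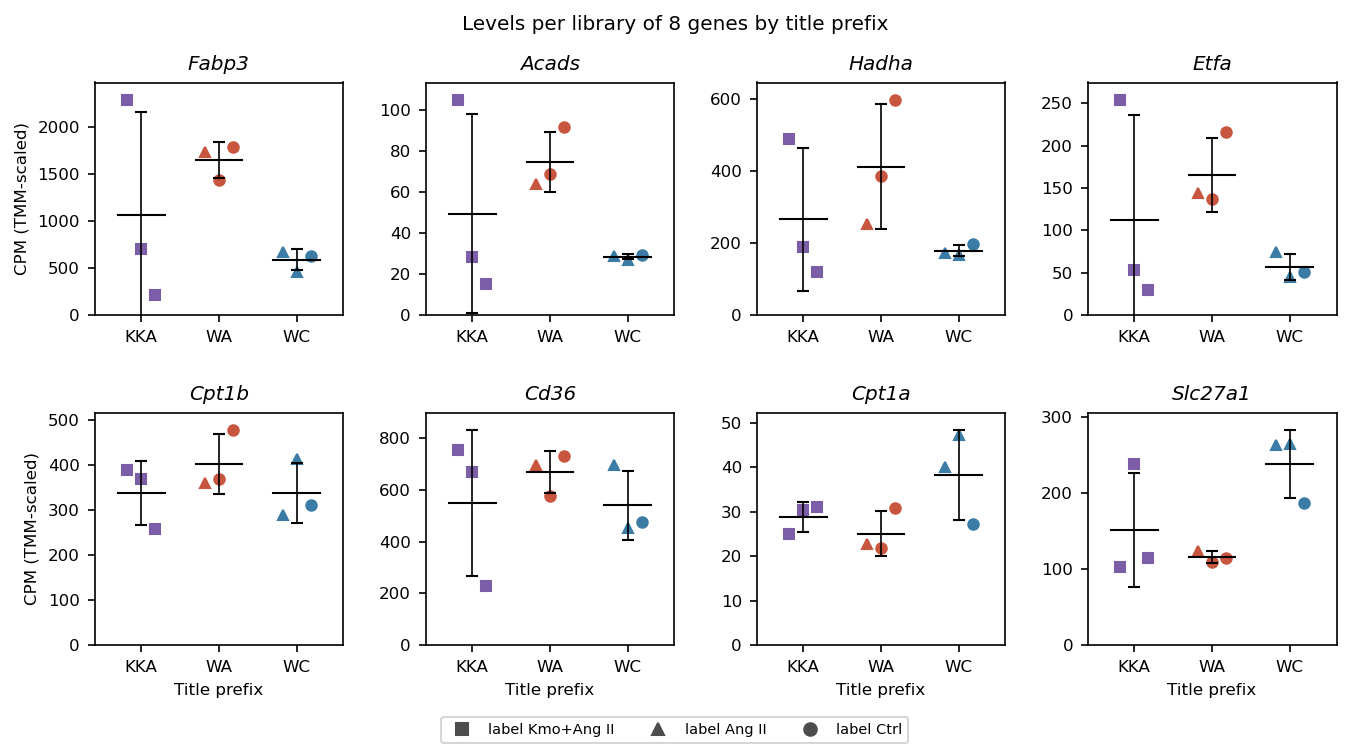
Level (TMM-scaled CPM) of 8 genes in each of 9 libraries by title prefix, with the mean (line) and SD (bars, cut at 0, n = 3 libraries per prefix) and symbols for the treatment label. Fabp3, Acads, Hadha and Etfa are higher in every WA than in every WC library, Cpt1b, Cd36 and Cpt1a overlap, and Slc27a1 is lower in every WA library (at most 124 CPM) than in every WC library (at least 186.2 CPM).

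The WA minus WC median of the 32 genes was positive under both treatment labels: among Ang II hearts it was 0.69 (1 library against 2, 27 genes positive), and among Ctrl hearts it was 1.02 (2 libraries against 1, 28 genes positive). The median of all genes was not computed for these splits. With the treatment label as a covariate, 17 fatty acid genes were called higher and 1 lower, against 6.64% of all genes called higher and 4.1% lower. When library size alone set the scaling, the all-gene median moved to -0.32 and that of the 32 genes to 0.56, no fatty acid gene was called (lowest edgeR adjusted p = 0.0733), and the split of all calls turned from 1459 higher and 950 lower to 62 higher and 170 lower. The count of called fatty acid genes was 21 with all 6 libraries (13.3% of all genes called in either direction) and 4 when Ang II replicate 2 was left out (2.45% of all genes). It was 7 when Ctrl replicate 3 was left out (2.77%), 12 when Ctrl replicate 1 was (5.41%), and 17 when Ctrl replicate 2, the WA library with atrial markers, was (6.67%).

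KKA hearts spread across the whole range of the fatty acid genes. None of the 32, and 0.0% of all 19091 genes, were called between KKA and WA or between KKA and WC hearts in the fit of 9 libraries (1345 and 671 genes at an unadjusted p under 0.05; DESeq2 called 91 and 27 genes, none among the 32). The median log2 difference was -0.50 in KKA against WA hearts (all genes 0.05, 5 of 32 positive) and 0.39 in KKA against WC hearts (all genes 0.05, 27 of 32 positive). The direction in KKA against WC hearts turned on 1 library: the median was -0.35 without Kmo+Ang II replicate 1 (0 of 32 positive), and 0.74 without replicate 3 (28 of 32 positive). With limma-voom it was 0.04 in KKA against WC hearts (20 positive) and -0.86 in KKA against WA hearts. These comparisons share the KKA libraries, and each also shares a prefix with WA minus WC. The smallest p in KKA minus WA was that of Crat, at -0.72 ± 0.35, followed by Acsl1, at -0.69 ± 0.41 (edgeR adjusted p = 0.718 and 0.733). In KKA minus WC it was that of Ehhadh, at -0.69 ± 0.23, followed by Slc27a1, at -0.65 ± 0.33 (edgeR adjusted p = 0.995 for both).

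The KKA libraries lay at different levels. Replicate 1 lay above all WA and WC libraries for 16 genes and within the WA range for 14. Replicate 2 lay within the WC range for 18 genes and within the WA range for 8. Replicate 3 lay below all WA and WC libraries for 27 genes, and Fabp3 in it, at 210.5 CPM, was 10.9-fold lower than in replicate 1. The share of all genes that lay so in each of these libraries was not computed. Only Slc27a1, Acsl3 and Cpt1a were not lower in replicate 3 than in replicate 1. Without replicate 1, 17 of the 32 genes were called lower in KKA than in WA hearts (4.63% of all genes called lower), with log2 differences from -1.99 to -1.08. Without Kmo+Ang II replicate 3 and Ctrl replicate 2, the libraries with atrial markers, none of the 32 was called and the median of KKA minus WA, less that of all genes, was -0.18, against -0.55 with them. The median of KKA minus WC, less that of all genes, was 0.72 without these libraries and 0.33 with them.

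Markers of heart muscle moved with the fatty acid genes. The 12 cardiomyocyte markers summed to 58702, 40084 and 21418 CPM in KKA hearts, 48749, 50405 and 61813 CPM in WA hearts and 30409, 35486 and 36660 CPM in WC hearts, so WA lay above WC without overlap. Of the 12 markers, 5 were called higher in WA hearts and 0 lower (median log2 difference 0.70), against 8.06% and 5.25% of all tested genes. Within this list Actc1, which encodes cardiac actin, differed by 2.31, while Myh6, the main myosin heavy chain of the adult mouse heart, differed by 0.26 and Ryr2, the calcium release channel, by 0.01, and neither was called. The summed level of the 32 fatty acid genes was 13836, 7570 and 3445 CPM in KKA hearts, 10593, 11249 and 13903 CPM in WA hearts and 7752, 5604 and 6969 CPM in WC hearts.

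**Figure D5:**
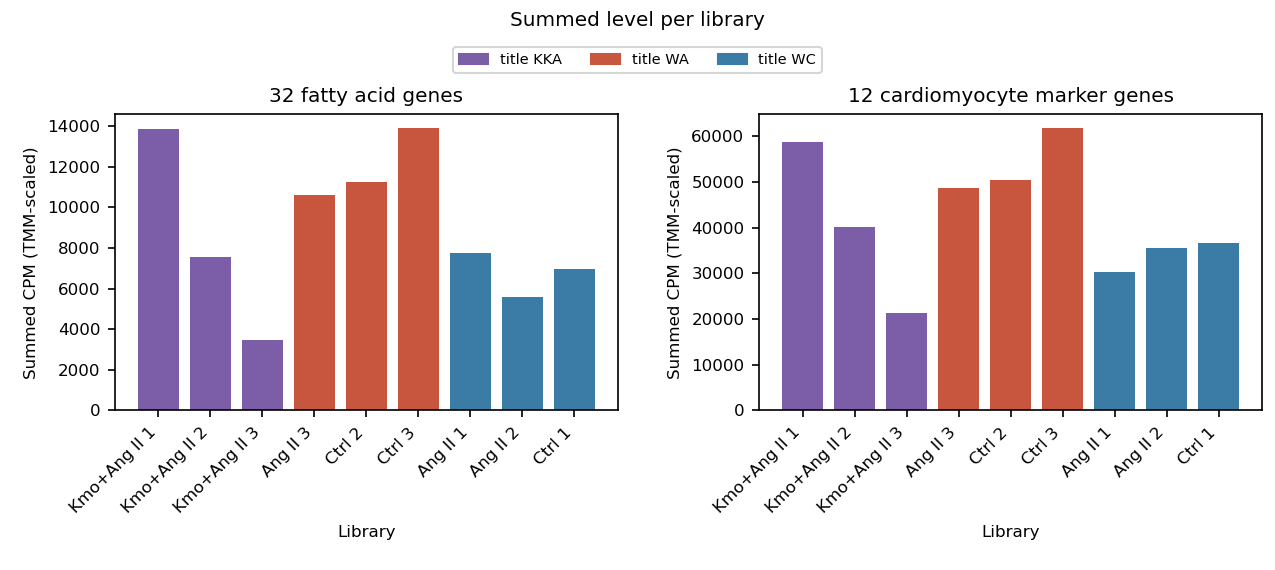
Summed level (TMM-scaled CPM) of the 32 fatty acid genes (left) and of 12 cardiomyocyte markers (right) in each of 9 libraries, coloured by title prefix. Both sums are higher in every WA library than in every WC library, and in both Kmo+Ang II replicate 3 is the lowest library, at 3445 CPM and 21418 CPM.

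Other cell types differed between the prefixes too. The 5 red cell genes summed to 116 to 489.7 CPM in WA hearts and 2944 to 7318 CPM in WC hearts. All 5 were called lower in WA hearts, against 5.25% of all tested genes. The 10 endothelial markers summed to 1037 to 1210 CPM in WA hearts and 1308 to 1353 CPM in WC hearts, with none called. The 9 adipocyte markers, nearly all of it Fabp4, summed to 764 to 1056 CPM in WA hearts and 1133 to 1521 CPM in WC hearts, while Plin1 lay between 0 and 3.35 CPM. In KKA minus WA, all 8 adipocyte markers that could be tested were positive (median log2 difference 1.52), with 0 called. None of the 9 had every KKA library above every WA library. Their sums were 812, 1407 and 668 CPM in the KKA libraries, which overlapped the WA sums. The 9 fibroblast markers summed to 684 to 904 CPM in WA hearts and 515 to 756 CPM in WC hearts, and to 2097 CPM in Kmo+Ang II replicate 3. Of these, 4 were called higher in WA hearts, against 8.06% of all tested genes. The 10 macrophage markers summed to 183.7, 363 and 397 CPM in the KKA libraries. The 6 epicardial and mesothelial markers summed to 90.6 CPM in Kmo+Ang II replicate 3 and to between 4.12 and 18.6 CPM in the other libraries. The part of these differences in the levels of the fatty acid genes was not tested.

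Of 94 further genes of fatty acid handling, 91 could be tested between WA and WC hearts in 6 libraries, and 21 were called higher and 5 lower (median log2 difference 0.30). The 94 include genes of ketone body use and of valine breakdown as well. Of all tested genes, 8.06% were called higher and 5.25% lower, so the 5 lower calls are near that share. The same shares apply to the counts of each list below, and single calls in a list do not stand out from them. Of 4 genes of ketone body use, 3 were positive (lowest -0.27), and 2 were called higher and 0 lower. Those called were Bdh1, the 3-hydroxybutyrate dehydrogenase, and Oxct1, the transferase that activates acetoacetate, at 1.84 ± 0.24 and 1.38 ± 0.24 (edgeR adjusted p = 0.00243 and 0.00633). Among the regulators, 4 of 21 were called higher: Prkaa2, the catalytic alpha 2 subunit of AMP-activated kinase (1.64), Perm1, a muscle coregulator of mitochondrial genes (1.201), Esrrg, an estrogen-related receptor (0.90), and Prkab2, a regulatory subunit of the kinase (0.63). Of 18 other mitochondrial enzymes, 8 were called higher, led by Hibch and Hibadh of valine breakdown (1.33 and 1.14), so that list reaches beyond fatty acids. Of 12 peroxisomal genes, 4 were called higher and 1 lower (median -0.18): Phyh, which prepares branched chains, Hsd17b4 and Scp2 were among those called higher (1.40, 0.86 and 0.83) and Acox3, an acyl-CoA oxidase, was the one called lower (-0.80).

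Of 4 carnitine supply genes tested, 2 were called lower in WA hearts and 0 higher. Slc22a5, the carnitine transporter of the cell membrane, had 19.1, 11.1 and 13.5 CPM in WA hearts, against 49.7, 38.2 and 20.8 CPM in WC hearts (log2 difference -1.30 ± 0.32, edgeR adjusted p = 0.0265). Aldh9a1, an enzyme of carnitine synthesis, had 63.6, 39.2 and 47.7 CPM in WA hearts, against 152, 154 and 90.8 CPM in WC hearts (-1.39 ± 0.25, edgeR adjusted p = 0.00703). In neither gene did the groups overlap. Of 15 genes of other uptake and triglyceride handling, 2 were called each way: Plin5 and Dgat2, which coat and fill lipid droplets, were called higher (0.94 and 0.76), and the lipases Mgll and Lipe lower (-0.83 and -0.56). Of 10 synthetases and thioesterases, only Acot2, a mitochondrial thioesterase, was called higher (0.87) and none lower, and 0 of 4 malonyl-CoA synthesis genes and 0 of 3 flavin supply genes were called. Outside fatty acid handling, 14 of 18 citric acid cycle genes (median 1.10) and 11 of 23 glycolysis and glucose uptake genes (median 0.66) were called higher in WA hearts and none lower. Of 15 genes known as PPAR alpha targets in fasting, 4 were called higher and 1 lower (median -0.21), and Plin5, Acot2 and Slc22a5 of these also stand among the 94.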

How the data were processed

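Poly(A) RNA from mouse heart was sequenced in 9 paired-end libraries, per the labels' protocols. The authors deposited whole-number counts per Ensembl gene, with 1 column per library and no scaling, per the file headers. Bowtie 0.12.2, HISAT2 2.0, StringTie 1.3.0 and build mm8 are named in the submitters' processing notes, without roles. How reads were counted, and whether strand was used, is not given in the sources used here. Depth and the treatment of overlapping genes shape values of this kind.

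Symbols were matched for 55141 of 55401 genes (260 without), and exon lengths came from GENCODE annotation of GRCm38, so no coordinates of the genes are given beyond those of the RefSeq promoter table, which is also GRCm38. Groups follow the treatment label; the title prefix is another grouping. Replicate numbers follow sample order and do not pair samples. The test was that of edgeR 4.0.16, run in R 4.3.3 (TMM scaling, filterByExpr, quasi-likelihood F test, Benjamini-Hochberg adjustment over all genes tested, threshold 0.05), in 1 fit of 9 libraries per grouping (19091 genes) and in 1 fit of the 6 WA and WC libraries (18111 genes). Each SE was computed from the F statistic and therefore restates the test. Log2 differences are first minus second group. The fits were also run on simulated counts. These were drawn with the same spread in all groups, so they do not cover the wider spread of the KKA libraries.

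The 32 genes, the further gene lists and the fit of 6 libraries were chosen with earlier results of these data known. Log2 differences are printed for the 2 genes with the smallest p in each comparison and, for WA minus WC in 6 libraries, for called genes, for Cpt1a, Cpt1b, Cd36, Acsl1 and Ppara whether called or not, and for up to 4 called genes of each further list. The differences of Lpl, Acaa2, Acaa1a, Etfb and single markers are given although outside this rule, chosen after they were seen. Alternatives were DESeq2 1.42.0 size factors and Wald test, library size only, other filters, limma 3.58.1 voom, fits of the compared groups alone, omission of the 37 mitochondrially encoded genes, the other grouping as a covariate, and omission of libraries. Protein sequences were not used here.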

Additional observations from a re-analysis of the deposited data

How the results depend on the processing

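The counts of genes called across the table moved most. With the DESeq2 Wald test they were 2 in Ang II minus Ctrl, 3 in Kmo+Ang II minus Ang II, 9 in Kmo+Ang II minus Ctrl, 505 in WA minus WC, 91 in KKA minus WA and 27 in KKA minus WC. None of the genes so called, also in WA minus WC, was among the fatty acid genes. With only the groups compared they were 1 in Kmo+Ang II minus Ctrl and 2409 in WA minus WC, with 21 fatty acid genes. With library size as the only scaling they were 11 in WA minus WC, 1 in KKA minus WA and 7 in KKA minus WC, and in the 6 libraries 232, with 0 fatty acid genes (11 higher and 3 lower at an unadjusted p under 0.05); Cd36, Cpt1b and Ppara then turned to -0.014, -0.069 and -0.185. With no low-count filter they were 5, 1 and 4 in the 3 prefix comparisons, and without the libraries with high atrial markers 2, 4 and 2, and 1270 in the 6 libraries. Leaving out 1 library gave 0 to 1 genes in each of the 3 label comparisons, 0 to 1576 in WA minus WC (0 to 13 fatty acid genes), 0 to 1709 in KKA minus WA (0 to 17 fatty acid genes), 0 to 7 in KKA minus WC, and 459 to 2980 in the 6 libraries (4 to 21 fatty acid genes). The median of the fatty acid genes less that of all genes ranged from -1.38 to -0.132 in KKA minus WA. Among omissions of 1 library from the fit of 9, the highest counts in WA minus WC and KKA minus WA came without Kmo+Ang II replicate 1. Apart from fewer samples, the cause was not tested. For the 26 genes named in the 6 libraries, 307 of 390 alternative values kept their direction and call, 76 lost the call, 4 gained it and 3 changed sign. No paired analysis was possible because the replicate numbers were given in sample order and the labels pair no libraries. Values near 1 CPM, such as those of Ppara, are limited by depth.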
